A study of Mus musculus with 4 samples.

Results

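Interferon-stimulated genes are the transcripts that cells raise when interferon reaches its receptors, and 46 of them were followed across splenic CD4+ T cells of wild-type (WT) and *Satb1* conditional knockout (cKO) mice. They were matched by gene symbol, and all 46 were found among the 55367 symbols of the count tables. By class, 38 are type I-like genes, which both type I interferon and, for many, interferon gamma can raise, and 8 are interferon gamma-induced GTPases (*Gbp2*, *Gbp3*, *Gbp5*, *Gbp7*, *Irgm1*, *Irgm2*, *Igtp* and *Iigp1*). Of the 46 genes, 44 had enough counts to be tested. *Ifitm3*, which blocks virus entry at membranes, had 7 and 1 counts in WT and 5 and 7 in cKO, and *Phf11d* had 11 and 7 against 3 and 3, and neither was tested.

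The 4 RNA-seq libraries came from peripheral CD4+ T cells sorted from the spleens of C57BL/6 mice, 2 labelled WT and 2 labelled *Satb1* conditional knockout, with no treatment stated. SATB1 is a nuclear protein that folds chromatin and sets transcription in T cells. By the design text the mutant mice are Satb1 F/F with either ThPOK-cre or E8I-cre, and by the study's methods CD4+ T cells were taken from those with ThPOK-cre, a driver that acts once thymocytes commit to the CD4 lineage. The labels do not say whether the WT mice carried floxed alleles or Cre, nor give the age or sex of a mouse, and the study's methods describe young adult mice of mixed sexes. The comparison asks how expression in CD4+ T cells changes upon loss of SATB1.

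Libraries held between 4495902 and 6555699 counts on genes. *Satb1* itself did not separate the genotypes, with 868 and 984 CPM (counts scaled to a common library size) in WT 1 and WT 2 and 945 and 847 CPM in cKO 1 and cKO 2 (log2 fold change -0.05, SE 0.12, edgeR adjusted p = 0.877). The tables hold a single count per gene, so the floxed part could not be looked at alone, and WT and cKO below mean the libraries so labelled. *Foxp3*, the factor that defines regulatory T cells, rose from 142 and 121 CPM in WT to 405 and 547 CPM in cKO (log2 fold change 1.86, SE 0.16, edgeR adjusted p = 0.000447). *Xist* (5447 and 4235 counts in WT, 9 and 6 in cKO) and 4 Y-linked genes (at most 1 count in WT, at least 138 in cKO) split with the genotype labels, so sex and genotype cannot be told apart in any comparison below. The T cell genes *Cd4*, *Cd3e*, *Cd3d*, *Trac*, *Zbtb7b* and *Lck* summed to between 4462 and 5110 CPM in the 4 libraries, and *Zbtb7b* among them was higher in cKO (232 and 200.3 CPM against 337 and 345 CPM, log2 fold change 0.66, edgeR adjusted p = 0.0117). Marker genes of B cells summed to 39.8 and 47.1 CPM in WT and 195.5 and 77.6 CPM in cKO. Of these, 7 of 9 were higher in both cKO libraries than in both WT libraries (24.8% of all tested genes). *Pax5* and *Cd74* were called higher, where 2.35% of all tested genes were. Myeloid markers summed to 34.4 and 43.2 CPM in WT and 125.0 and 74.6 CPM in cKO. Of these, 7 of 10 were higher and 1, *Itgam*, lower in both cKO libraries (24.8% and 25.4% of all tested genes). Called higher were 5, against 2.35% of all tested genes. NK cell markers summed to 47.0 and 37.0 CPM in WT and 14.9 and 18.3 CPM in cKO. Most of this sum was *Eomes* (39.8 and 32.3 CPM against 11.1 and 17.0 CPM, called lower). *Ncr1* had at most 3 counts, and *Klrb1c* and *Klrk1* had at most 3.67 CPM and were not called. CD8 T cell markers summed to 47.7 and 58.5 CPM in WT and 34.3 and 26.8 CPM in cKO. *Cd8b1* was called lower and *Cd8a* was not, at a log2 fold change of -0.07 and an edgeR adjusted p = 0.941. Over all tested genes, 1.95% were called lower.

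Type I interferons act through the receptor chains IFNAR1 and IFNAR2 and the kinases TYK2 and JAK1 to form a complex with STAT2 and IRF9, which binds the interferon-stimulated response element (ISRE). Interferon gamma acts through IFNGR1 and IFNGR2 and the kinases JAK1 and JAK2 and leads to binding at the gamma-activated sequence (GAS). Resting T cells keep a low level of this program, and T cells also make interferon gamma after activation. In bulk RNA, fewer cells of a type and less RNA per cell cannot be told apart.

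The sequence features of the classes were read from RefSeq promoters on GRCm38.p6, each running from 250 bases before to 50 bases after an annotated start. A window was found for 36 of the 46 genes. ISRE letters were GAAANNGAAA on either strand, which reads TTTCNNTTTC from the other, and GAS letters were TTCNNNGAA, which read alike on both strands and can overlap the ISRE letters. ISRE letters were in 13 of 29 type I-like genes with a window (44.8%) and in 7 of 7 GTPases, against 3.99% of all 27025 genes with a window. GAS letters were in 8 of 29 type I-like genes (27.6%) and in 4 of 7 GTPases (57.1%), against 9.55% of all genes. Genes with several annotated starts were counted once if any of their windows held the letters. A match describes the letters in the window and not the binding of a factor. The sites below are shown because they carry the feature that both classes share, with ISRE letters, and GAS letters where they lie within the same 30 bases, in capitals, from 5′ to 3′ on the strand of the gene:

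Isg15, chr4:156200871-156200900, minus strand: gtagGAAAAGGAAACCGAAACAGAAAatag
Ifit1, chr19:34640775-34640804, plus strand: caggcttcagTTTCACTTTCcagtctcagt
Ifit3, chr19:34583363-34583392, plus strand: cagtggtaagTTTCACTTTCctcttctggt
Rsad2, chr12:26456553-26456582, minus strand: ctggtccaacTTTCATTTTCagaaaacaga
Bst2, chr8:71537583-71537612, minus strand: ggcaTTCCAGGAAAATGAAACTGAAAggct
Oas1a, chr5:120907523-120907552, minus strand: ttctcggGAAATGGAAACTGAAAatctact
Oas3, chr5:120777715-120777744, minus strand: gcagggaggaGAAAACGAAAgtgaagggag
Gbp2, chr3:142620594-142620623, plus strand: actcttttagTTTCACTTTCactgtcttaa
Gbp7, chr3:142530273-142530302, plus strand: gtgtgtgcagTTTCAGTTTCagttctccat
Irgm1, chr11:48871428-48871457, minus strand: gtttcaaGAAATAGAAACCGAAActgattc
Irgm2, chr11:58214898-58214927, plus strand: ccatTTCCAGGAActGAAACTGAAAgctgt
Igtp, chr11:58199507-58199536, plus strand: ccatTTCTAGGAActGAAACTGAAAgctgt

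*Isg15* held 3 overlapping ISRE matches, the first starting 78 bases before its start site. The sites of *Irgm2* and *Igtp*, neighbouring GTPase genes on chromosome 11, were identical at 29 of 30 bases, each with GAS letters just ahead of ISRE letters. Among the GTPases shown, the RefSeq starts used for *Irgm2*, *Irgm1* and *Gbp2* lie inside the longer spans that GENCODE gives these genes. In *Bst2*, GAS and ISRE letters overlapped. The first ISRE match printed for each GTPase began between 30 and 64 bases before the start.

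No interferon-stimulated gene passed the test between the genotypes. In the edgeR quasi-likelihood test, 0 of 44 tested genes passed an adjusted p of 0.05, where 4.3% of all 12403 tested genes did (2.35% higher and 1.95% lower in cKO). The count was also 0 of 44 with RLE factors (4.38% of all tested genes called), with unscaled library totals (4.39%), after a filter of 1 CPM in 2 libraries (4.03%), in DESeq2 (3.44%), in limma voom (3.89%) and at an adjusted p under 0.1 (7.78%). Without a filter on low counts it was 6 (5.72% of all genes called), and in fits lacking a library it ran from 0 to 18. With same-numbered libraries taken as blocks, 4 were called, *Irgm1*, *Irgm2*, *Oas1a* and *Xaf1*, all higher (9.39% of all tested genes called). The main test did not read these numbers as pairs. At an unadjusted edgeR p under 0.05 in the main test there were 4, namely *Oas1a*, *Irgm1* and *Irgm2* with positive and *Oasl2* with negative values. That is 4 of 44 against 19.1% of all tested genes. The adjusted p of the 44 genes ran from 0.103 to 0.999. The 95% interval lay within a 2-fold change in either direction for 36 of the 44 genes and within a 1.5-fold change for 22. The median log2 fold change (cKO over WT) was -0.03 over the 44 genes, -0.05 over the 36 type I-like genes and 0.29 over the 8 GTPases, against -0.0015 over all tested genes. Genes whose WT and cKO libraries did not overlap numbered 7 with higher cKO values (24.8% of all tested genes) and 3 with lower ones (25.4%), or 22.7% of the 44 against 50.3% in all.

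**Figure D1:**
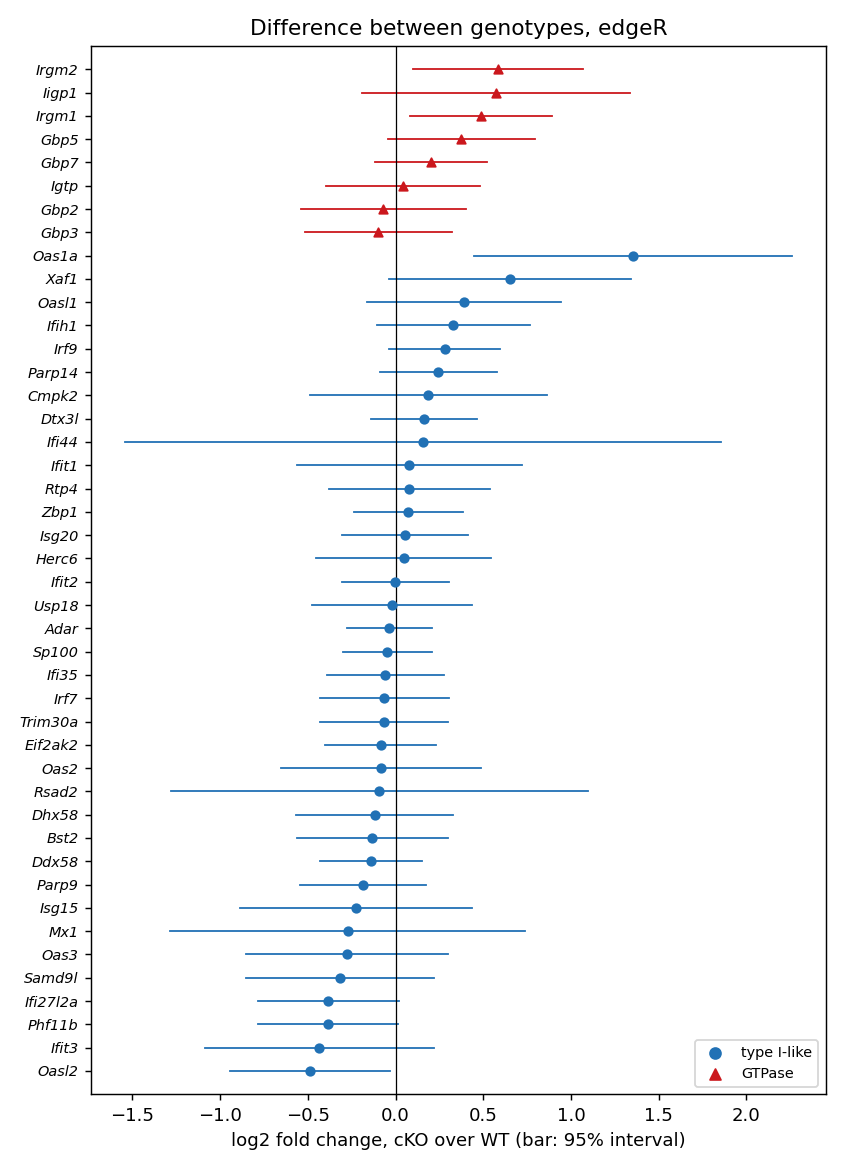
Log2 fold change of cKO over WT from edgeR for the 44 tested genes (circles, type I-like; triangles, GTPases), with bars for the 95% interval. Intervals of 40 genes cross 0, and *Irgm2*, at 0.58, heads the GTPases.

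The larger difference lay between the cKO libraries themselves. Of the 44 tested genes, 43 were higher in cKO 2 than in cKO 1, where 48.9% of all tested genes were, and the exception was *Ifi44*, with 11 and 8 counts. The median log2 ratio of cKO 2 over cKO 1 was 0.55 over the 44 genes and -0.0074 over all tested genes. It was 0.54 for type I-like genes and 0.63 for GTPases. A gap above 1.5-fold in favour of cKO 2 was seen in 20 of the 44, against 8.01% of all tested genes, and a gap of that size the other way in 0 of 44, against 5.61%. The WT libraries differed far less, with 16 of 44 genes higher in WT 2 than in WT 1 (50.1% of all tested genes) and a median log2 ratio of -0.05. A gap above 1.5-fold between the WT libraries was seen upward in WT 2 in 2 genes (4.76% of all tested genes) and downward in 2 (3.71%). In 39 of 44 genes the gap between the cKO libraries exceeded the difference between the genotypes on the log2 scale, against 52.4% of all tested genes. With a single library on each side of this gap there is no test, and it describes these libraries. Under RLE factors or total counts in place of TMM, 43 of 44 genes remained higher in cKO 2, with medians of 0.56 and 0.61.

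**Figure D2:**
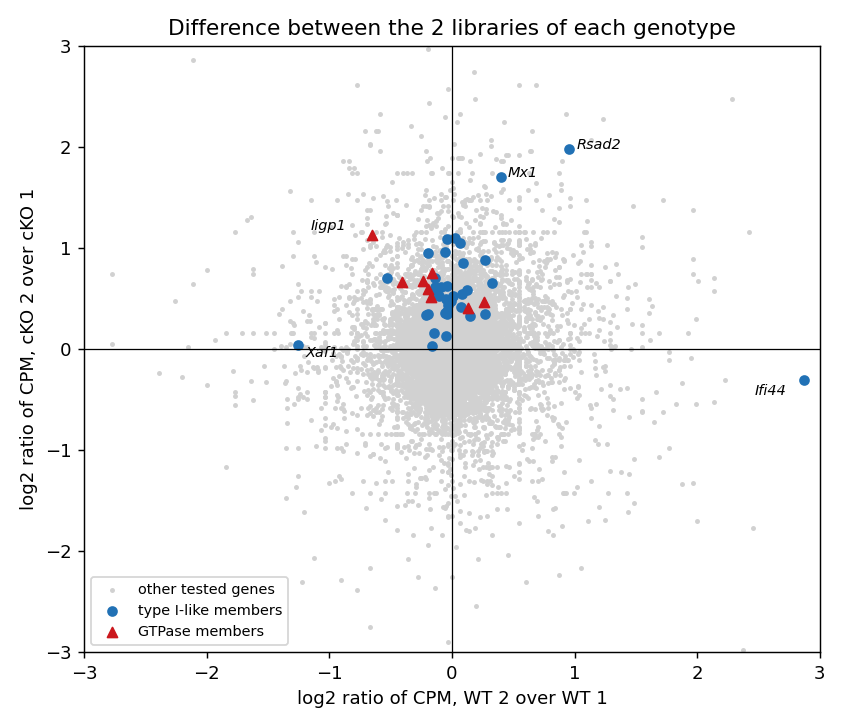
Log2 ratio of CPM between the libraries of each genotype, WT 2 over WT 1 on the x axis and cKO 2 over cKO 1 on the y axis, for type I-like genes (circles), GTPases (triangles) and other tested genes (grey; genes beyond the axes are not drawn). All interferon-stimulated genes except *Ifi44* lie above 0 on the y axis, while they scatter on both sides of 0 on the x axis.

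By library, cKO 1 was the lowest of the 4 for 32 of the 44 genes, against 27% of all tested genes, and cKO 2 was the highest for 34, against 26.6%. The median deviation of log2(CPM + 0.5) from the mean of the 4 libraries was -0.31 in cKO 1 and 0.25 in cKO 2 for type I-like genes, with 0.04 and 0.03 in WT 1 and WT 2. WT thus lay between the cKO libraries for type I-like genes. For the 4 immunity-related GTPases (IRG family) the order differed, with -0.01 and -0.41 in WT, -0.18 in cKO 1 and 0.57 in cKO 2, so WT 2 was at the bottom. The sums of B cell and of myeloid markers were highest in cKO 1, the library where type I-like genes were lowest. Among these markers, *Cd22* and *Cybb* were instead highest in cKO 2 and *Itgam* in WT 2. Erythroid markers summed to 61.0, 229 and 118 CPM in WT 1, WT 2 and cKO 2 and to 8.77 CPM in cKO 1. Reads on no annotated feature were 60.8% and 62.1% in WT, 59.4% in cKO 1 and 64.5% in cKO 2 (of reads on genes, on no feature or ambiguous), so the cKO libraries were the ends of that range. Mitochondrial genes took 2.14% and 2.40% of gene counts in WT, 2.07% in cKO 1 and 1.69% in cKO 2. The part of these cells and of these library differences in the gap was not tested. The list for plasmacytoid dendritic cells, the main makers of type I interferon, summed to 93.6 and 94.1 CPM in WT and 68.2 and 81.2 CPM in cKO. Of its 4 genes, *Siglech* was at or under 3 counts in every library, *Tcf4* was higher in cKO (5.05 and 3.14 against 13.1 and 11.1 CPM, edgeR adjusted p = 0.028), *Ccr9* was lower (36.7 and 43.9 against 18.7 and 15.3 CPM, edgeR adjusted p = 0.00626) and *Bst2*, also counted among the interferon-stimulated genes, was not called.

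**Figure D3:**
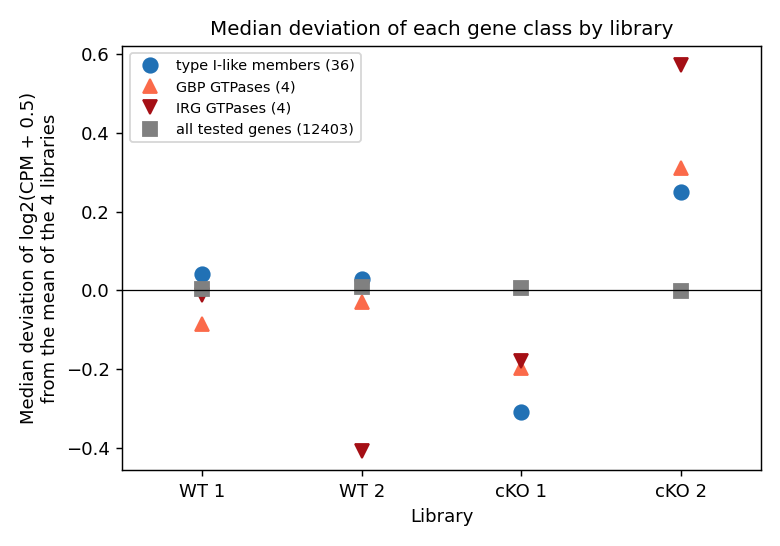
Median deviation of log2(CPM + 0.5) from the mean of the 4 libraries, by library, for type I-like genes, GBP and IRG GTPases and all tested genes. The classes lie between -0.31 and -0.18 in cKO 1 and between 0.25 and 0.57 in cKO 2, while all tested genes stay near 0.

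Among the sensors of foreign nucleic acid, 0 of 4 passed the test, against 4.3% of all tested genes. *Ifih1*, a helicase that detects long double-stranded RNA, had 35.2 and 31.6 CPM in WT 1 and WT 2 and 34.1 and 50.4 CPM in cKO 1 and cKO 2. Its cKO 2 value was above the other 3 libraries, which lay close together, and the log2 fold change was 0.33 (SE 0.19, edgeR adjusted p = 0.399). *Ddx58*, the sensor of short RNA with a free phosphate end, *Dhx58*, its regulator, and *Zbp1*, which senses left-handed nucleic acid, had log2 fold changes between -0.14 and 0.07. Their cKO 2 over cKO 1 ratios were 1.30, 1.41 and 1.33.

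Of the transcription factors and feedback genes, *Irf9*, the DNA-binding part of the complex that recognises the ISRE, had 171 and 166 CPM in WT and 175 and 236 CPM in cKO. Both cKO values lay above both WT values, by little in cKO 1, and the log2 fold change of 0.28 (SE 0.14) did not pass the edgeR test (adjusted p = 0.319). *Irf7*, the factor that amplifies type I interferon production, had 110.1 and 102 CPM in WT and 83.5 and 121 CPM in cKO. WT thus sat between the cKO libraries, with a log2 fold change of -0.06 and an interval of -0.43 to 0.31. *Isg15*, a ubiquitin-like modifier, showed the same arrangement, with 16.5 and 15.9 CPM in WT and 9.53 and 18.5 CPM in cKO (log2 fold change -0.22, edgeR adjusted p = 0.736). Its cKO libraries differed 1.94-fold although the WT libraries were nearly equal. *Usp18*, which removes ISG15 from proteins and damps the type I receptor, had 26.3 and 28.7 CPM in WT and 21.7 and 32.5 CPM in cKO.

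The largest estimate of all 44 genes was that of *Oas1a* (chromosome 5, 120896256 to 120907521), an oligoadenylate synthetase that makes the activator of RNase L upon binding double-stranded RNA. It had 19 and 9 counts in WT and 26 and 38 in cKO, or 2.91 and 2.02 CPM and 4.95 and 8.08 CPM. The groups did not overlap, and means were 2.46 ± 0.629 CPM and 6.52 ± 2.21 CPM (SD, n = 2). The log2 fold change was 1.35 (SE 0.40, interval 0.45 to 2.26), with an edgeR adjusted p = 0.103. Its near neighbours on chromosome 5 had other patterns. *Oas2* had 24.01 and 25.5 CPM in WT and 16.8 and 30.2 CPM in cKO, a log2 fold change of -0.08 (edgeR adjusted p = 0.896), and *Oas3* had 64.7 and 56.5 CPM and 34.3 and 66.5 CPM, a log2 fold change of -0.28. For both, cKO 1 was lowest and cKO 2 highest.

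*Oasl2* and *Oasl1*, neighbouring genes of the same family on chromosome 5, had estimates of opposite sign. *Oasl2* (chromosome 5, 114896936 to 114912234) had 33.2 and 32.3 CPM in WT and 18.5 and 28.5 CPM in cKO. Its cKO libraries lay below both WT libraries, and the log2 fold change was -0.49 (SE 0.20, edgeR adjusted p = 0.233), the most negative estimate of the 44 genes. It was -0.20 without cKO 1 and -0.82 without cKO 2, where it was called (edgeR adjusted p = 0.0011). *Oasl1*, whose product holds back translation of *Irf7*, had 8.72 and 10.5 CPM in WT and 11.1 and 14.03 CPM in cKO, with a log2 fold change of 0.39 (adjusted p = 0.436). Members of a family can share reads, so their split is uncertain.

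The IFIT proteins bind viral RNA that lacks the host cap methylation, and their genes lie together on chromosome 19. *Ifit1* had 52.9 and 53.8 CPM in WT and 36.01 and 77.2 CPM in cKO. Its WT libraries were nearly equal and its cKO libraries lay on either side of them, 2.14-fold apart, with a log2 fold change of 0.08 (SE 0.28, edgeR adjusted p = 0.916). *Ifit3* had 24.2 and 25.3 CPM in WT and 12 and 24.9 CPM in cKO, so that cKO 1 alone stood apart (log2 fold change -0.43, adjusted p = 0.463). *Ifit2* varied less, from 75.3 CPM in cKO 1 to 94.6 CPM in cKO 2. Of the other genes that act on RNA, *Eif2ak2*, the kinase that halts translation on double-stranded RNA, and *Adar*, the adenosine deaminase, had cKO 2 over cKO 1 ratios of only 1.02 and 1.12, with log2 fold changes of -0.08 and -0.04. *Adar* also makes a constitutive isoform, which the gene count does not separate. *Isg20*, an exonuclease, had a ratio of 1.28.

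Virus restriction genes showed the widest gaps, and all 6 tested were over 1.5-fold higher in cKO 2 than in cKO 1. *Rsad2*, whose product viperin makes a chain-terminating nucleotide, had 14.5 and 28.2 CPM in WT and 8.003 and 31.7 CPM in cKO. Its libraries varied within both genotypes, 1.94-fold in WT and 3.96-fold in cKO, and its interval of -1.28 to 1.10 reached past a 2-fold change in either direction. *Mx1*, a dynamin-like GTPase against influenza-type viruses, had 10.6 and 13.9 CPM in WT and 4.76 and 15.5 CPM in cKO. Its log2 fold change was -0.27 (SE 0.45, edgeR adjusted p = 0.801), with cKO libraries 3.26-fold apart. *Cmpk2*, a mitochondrial nucleotide kinase gene beside *Rsad2* on chromosome 12, had 23.7 and 23.1 CPM in WT and 17.1 and 36.6 CPM in cKO.

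*Samd9l*, a translation inhibitor, had 265 and 319 CPM in WT and 165 and 304 CPM in cKO, so cKO 2 matched WT and cKO 1 lay below (log2 fold change -0.32). *Bst2*, the tethering protein that holds budding virus at the cell surface, had 51.7 and 47.1 CPM in WT and 35.8 and 54.8 CPM in cKO, a log2 fold change of -0.13 (edgeR adjusted p = 0.766). *Rtp4*, a chaperone of receptors with antiviral activity, had 66.2 and 60.3 CPM in WT and 51.1 and 83.1 CPM in cKO, a log2 fold change of 0.08 (edgeR adjusted p = 0.879). For both genes the WT values fell between those of cKO 1 and cKO 2.

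Genes of ubiquitin, ADP-ribose and nuclear body pathways had a median log2 ratio of cKO 2 over cKO 1 of 0.48, against 0.99 for virus restriction genes. *Sp100*, a scaffold of PML nuclear bodies, had 942 and 909 CPM in WT and 857 and 935 CPM in cKO, and was the most even of them, with a ratio of 1.09. *Dtx3l*, a ubiquitin ligase, and *Parp9*, its partner, are divergent neighbours on chromosome 16 with *Parp14* close by. Their log2 fold changes were 0.16, -0.19 and 0.24, and their cKO 2 over cKO 1 ratios 1.27, 1.44 and 1.40. Exons of *Dtx3l* and *Parp9* overlap on opposite strands over 8% and 9.40% of their lengths, so reads there cannot be told apart without strand. *Phf11b* had 26.3 and 25.5 CPM in WT and 17.5 and 22.3 CPM in cKO, without overlap (log2 fold change -0.39, edgeR adjusted p = 0.279). The ubiquitin ligase genes *Herc6* and *Trim30a* had log2 fold changes of 0.05 and -0.06.

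**Figure D4:**
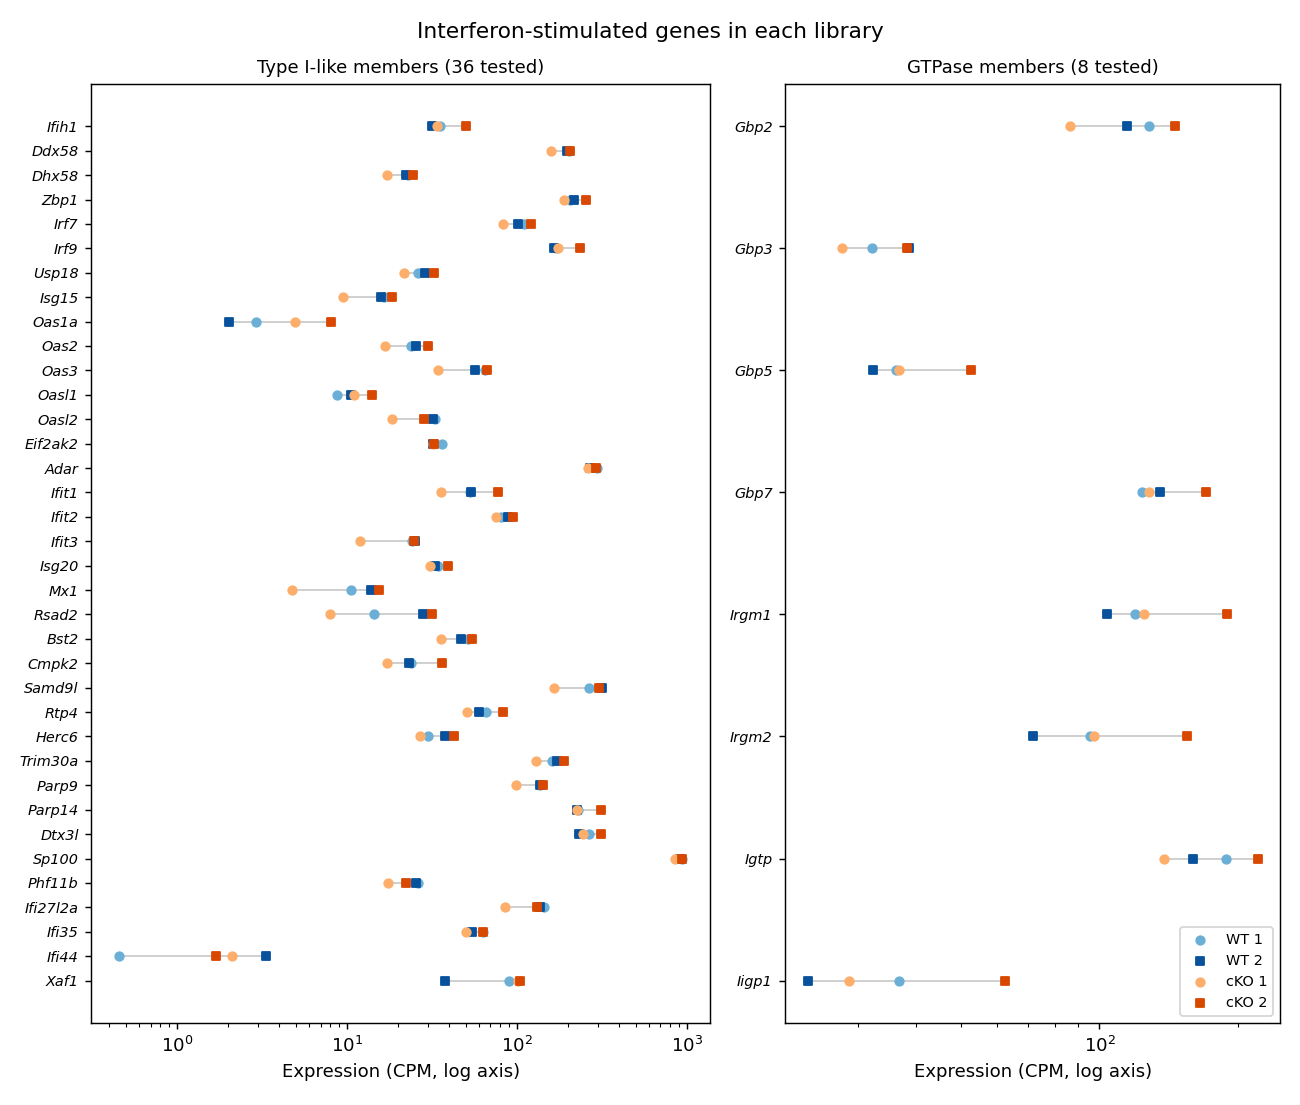
CPM (log axis) of each tested gene in WT 1, WT 2 (blue) and cKO 1, cKO 2 (orange), type I-like genes on the left and GTPases on the right. The cKO 1 point lies leftmost for 32 of the 44 genes and the cKO 2 point rightmost for 34, and *Xaf1* has a single low library, WT 2.

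*Ifi27l2a* was the most abundant transcript per length, with a mean of 268 CPM per kilobase of exon, ahead of *Sp100* at 121 and *Igtp* at 87.3. It had 145 and 136 CPM in WT and 85.4 and 131 CPM in cKO. The cKO values lay below both WT values, in cKO 2 only just, and the log2 fold change of -0.38 (SE 0.18) had an edgeR adjusted p = 0.284. That estimate was -0.11 without cKO 1 and -0.72 without cKO 2, where it was called (edgeR adjusted p = 6.24e-06). *Xaf1*, an antagonist of the apoptosis inhibitor XIAP, had 90.5 and 37.9 CPM in WT and 101 and 104 CPM in cKO. WT 2 stood apart from the other 3 libraries, and the log2 fold change of 0.65 (SE 0.30, edgeR adjusted p = 0.288) fell to 0.18 without WT 2. Without WT 1 it was 1.45 (adjusted p = 2.46e-06), a fit that sets WT 2 alone against cKO and takes its spread from the cKO pair. *Ifi35* had a log2 fold change of -0.06, and *Ifi44* was near the limit of detection, with 3 and 15 counts in WT and 11 and 8 in cKO.

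The guanylate-binding proteins (GBP family) coat pathogen vacuoles, and their genes *Gbp5*, *Gbp7*, *Gbp3* and *Gbp2* lie in a row on chromosome 3 between 142493978 and 142638008. *Gbp2* had 128 and 114 CPM in WT and 86.3 and 146 CPM in cKO, with WT between the cKO libraries (log2 fold change -0.07, SE 0.21, edgeR adjusted p = 0.896). *Gbp7* had 124 and 135 CPM in WT and 128 and 169.8 CPM in cKO, a log2 fold change of 0.20 (adjusted p = 0.482), with cKO 2 above the rest. *Gbp3* had 32.1 and 38.5 and 27.6 and 38.3 CPM, the most negative estimate of the GTPases at -0.10. *Gbp5* had 36.3 and 32.3 and 36.8 and 52.7 CPM, with cKO 1 level with WT 1. These genes are close paralogs, so the split of reads between them is uncertain.

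The immunity-related GTPases (IRG family) disrupt parasite vacuoles and, for the *Irgm* products, restrain the other members. All 4 had positive estimates. *Irgm1* (chromosome 11, 48861968 to 48871683) had 119 and 104 CPM in WT and 125 and 189 CPM in cKO, and means were 112 ± 10.8 CPM and 157 ± 44.8 CPM (SD, n = 2). Its groups did not overlap, and the log2 fold change was 0.49 (SE 0.18, interval 0.08 to 0.89, edgeR adjusted p = 0.183). *Irgm2* (chromosome 11, 58199618 to 58222782) had 95.1 and 71.9 CPM in WT and 97.4 and 155 CPM in cKO. Its cKO 1 value exceeded WT 1 by little, and the log2 fold change was 0.58 (SE 0.21, edgeR adjusted p = 0.179).

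*Igtp*, whose annotated exons overlap those of *Irgm2* over 8.01% of their length on the same strand, had 188 and 159 CPM in WT and 138 and 221 CPM in cKO. Its WT values lay between the cKO values, and the log2 fold change was 0.04 (edgeR adjusted p = 0.933). *Iigp1* on chromosome 18 had 36.7 and 23.3 CPM in WT and 28.6 and 62.5 CPM in cKO, the widest spread of the GTPases, with a log2 fold change of 0.57 (SE 0.34, edgeR adjusted p = 0.406).

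Set side by side, type I-like genes had 14 positive and 22 negative estimates and a median of -0.05, and GTPases had 6 positive and 2 negative estimates and a median of 0.29. The GBP median was 0.07 and the IRG median 0.53, with *Irgm1*, *Irgm2*, *Iigp1* and *Gbp5* above the GTPase median. Summed over class, type I-like genes had 3976 and 3879 CPM in WT and 3349 and 4438 CPM in cKO. GTPases had 759 and 679 CPM in WT and 668 and 1033 CPM in cKO. For both classes the cKO libraries spanned the WT range. The 4 *Gbp* genes are neighbours, as are *Irgm2* and *Igtp*, so the 8 genes are not independent points. The difference between the classes was not tested.

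The outcome turned on which cKO library was used. Without cKO 1, 14 of 44 genes (31.8%) were higher in cKO by the edgeR test and 0 lower, where 5.51% of all tested genes were higher and 6.18% lower. They were *Irf9*, *Ifih1*, *Oas1a*, *Ifit1*, *Cmpk2*, *Rtp4*, *Parp14*, *Dtx3l* and 6 of the 8 GTPases. *Irgm1* then had a log2 fold change of 0.75 (edgeR adjusted p = 9.82e-05) and *Irgm2* one of 0.87 (adjusted p = 0.000194). Without cKO 2 these were 0.16 (edgeR adjusted p = 0.378) and 0.21 (adjusted p = 0.323). Without cKO 2, 17 of 44 genes (38.6%) were lower and 1, *Xaf1*, was higher, where 6.38% of all tested genes were lower and 7.43% higher. Those lower included *Isg15*, *Irf7*, *Ifit1*, *Ifit3*, *Mx1*, *Rsad2*, *Oas3*, *Bst2*, *Samd9l*, *Gbp2* and *Igtp*. *Ifit1* and *Igtp* were called in both of these fits, in opposite directions, with 0.53 and -0.56 for *Ifit1* and 0.34 and -0.33 for *Igtp*. Without WT 1, 3 of 44 were higher (*Xaf1*, *Irgm2* and *Iigp1*) and 0 lower, where 3.62% of all tested genes were called (1.88% higher and 1.74% lower), and without WT 2, 0 of 44 in either direction (1.39% of all tested genes, 0.724% higher and 0.662% lower). A fit with 1 cKO library assumes that it varies as the WT libraries do, whereas the cKO libraries differed more for these genes. The GTPase and type I-like medians were 0.50 and 0.18 without cKO 1, -0.05 and -0.33 without cKO 2, 0.33 and -0.06 without WT 1, and 0.28 and -0.03 without WT 2, fits that share libraries with each other.

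The rest of the interferon pathway was covered by 40 further genes, of which 31 were tested and 1 passed, against 4.3% of all tested genes. Of the 31 estimates, 23 were positive (74.2%, against 49.8% of all tested genes), with a median of 0.14, and 16 genes did not overlap with higher and 2 with lower cKO values (24.8% and 25.4% of all tested genes). At an unadjusted edgeR p under 0.05 there were 9 with positive and 1 with negative values. Of all 12403 tested genes, 1205 and 1165 were (19.1% in either direction). *Ifngr1* (chromosome 10, 19591949 to 19610229), the ligand-binding chain of the interferon gamma receptor, rose from 234 and 198 CPM in WT to 519.6 and 481 CPM in cKO. Both cKO libraries lay above both WT libraries, with means of 216 ± 25.2 CPM and 501 ± 27 CPM (SD, n = 2). The log2 fold change was 1.21 (SE 0.11, edgeR adjusted p = 0.000889), and leaving out any library kept it between 1.09 and 1.34 and past the test. Its partner chain *Ifngr2* had 73.1 and 64.3 CPM in WT and 90.9 and 75.9 CPM in cKO (log2 fold change 0.28, adjusted p = 0.296). The type I receptor chain *Ifnar1* had 223 and 225 and 209 and 252 CPM, a log2 fold change of 0.04 (adjusted p = 0.884), and *Ifnar2* had 78.6 and 81.6 and 99.5 and 89.9 CPM.

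**Figure D5:**
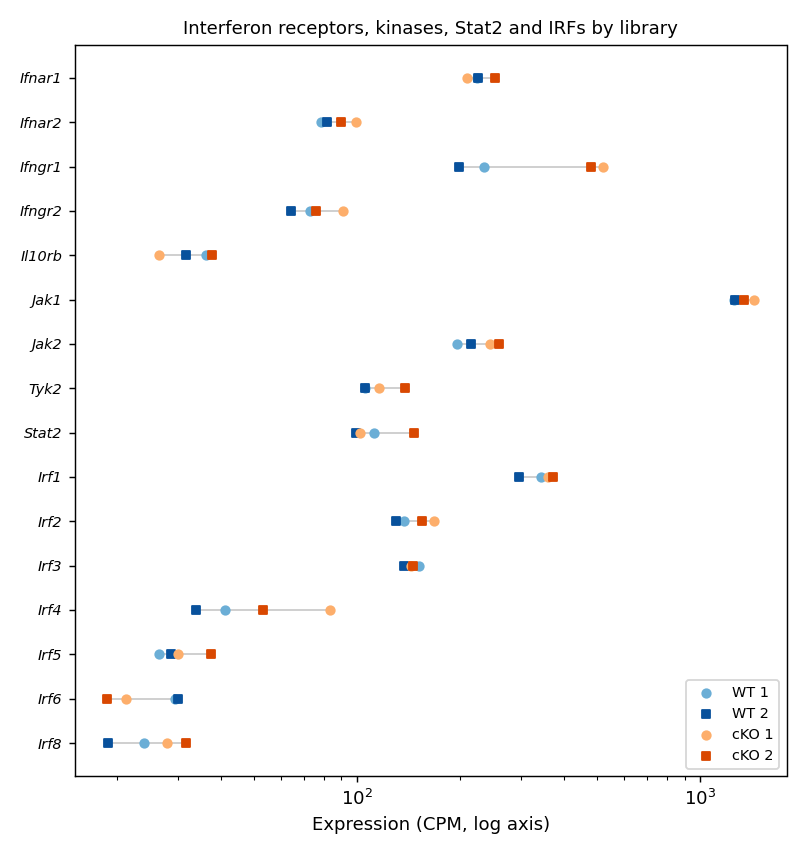
CPM (log axis) of interferon receptor chains, kinases, *Stat2* and IRF genes in WT 1, WT 2 (blue) and cKO 1, cKO 2 (orange). *Ifngr1* separates the genotypes, at 234 and 198 CPM in WT and 519.6 and 481 CPM in cKO, and no other gene drawn passed the test.

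Interferon ligands were scarce. *Ifng* had 9 and 13 counts in WT and 5 and 4 in cKO, and *Ifnb1*, *Ifna2*, *Ifna4*, *Ifne* and *Ifnk* had 0 counts in each of the 4 libraries, which allows up to between 0.459 and 0.672 CPM (3 counts, for counting error). Among the signal transducers, *Stat2*, itself raised by interferon, had 112 and 99.5 CPM in WT and 102 and 147 CPM in cKO (log2 fold change 0.23, edgeR adjusted p = 0.506). It was 1.44-fold higher in cKO 2 than in cKO 1. *Irf1*, the factor that drives many responses to interferon gamma, had 344 and 297 and 359 and 372 CPM, a log2 fold change of 0.19 (adjusted p = 0.386). Over the 31 tested pathway genes, 15 were higher in cKO 2 than in cKO 1 (48.9% of all tested genes), with a median log2 ratio of -0.01. No ligand is among these tested genes. *Irf4*, named after its values were seen, had a log2 fold change of 0.86 with an edgeR adjusted p = 0.0564, and it was called in 8 of 12 alternatives, DESeq2 and unscaled totals among them and RLE factors, limma voom, the 1 CPM filter and the fit without WT 2 not.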

How the data were processed

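RNA was measured in 2 WT and 2 *Satb1* cKO libraries, grouped and numbered by their labels. The authors aligned reads to mm10 with HISAT2 2.1.0, counted them per gene with HTSeq (0.11.1 in the submitters' processing notes) and deposited raw counts. The annotation and strand setting are not given in the sources used here, and the kit does not mark strand. HTSeq summary lines were left out. Reads on no feature were 59.4% to 64.5% of reads on genes, on no feature or ambiguous.

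filterByExpr kept 12403 genes, which TMM scaled, and CPM used these scaled totals. The two-sided edgeR (4.0.16, in R 4.3.3) quasi-likelihood test on genotype had Benjamini-Hochberg adjustment over kept genes and a threshold of 0.05. DESeq2 1.42.0, limma 3.58.1, other scalings, filters and thresholds, a replicate block and fits without each library were alternatives. SE came from the F statistic. The labels do not say whether replicates are separate mice, but the study describes them as biological replicates and its plotted points as separate mice. An exact permutation test of 2 against 2 cannot go below 0.333. The fit was tested on simulated counts. Positions and exonic lengths are from GENCODE M21 on GRCm38, the assembly of mm10.

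Genes and lists were chosen with earlier results of these data known. Values were given in full for 15 set genes and the 2 highest and 2 lowest estimates of each class, and more briefly for the others. Of the pathway list, called genes, *Ifnar1*, *Ifngr1*, *Stat2* and *Irf1* were named. A pathway gene is not reported here. *Cgas* and *Sting1* were matched by older symbols.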

Additional observations from a re-analysis of the deposited data

How the results depend on the processing

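None of the 44 interferon-stimulated genes was called under RLE factors, unscaled totals, the 1 CPM filter, DESeq2, limma voom or an adjusted p under 0.1. With no filter on low counts there were 6, *Oas1a*, *Xaf1*, *Irgm1*, *Irgm2* and *Iigp1* higher and *Ifi27l2a* lower, and fits lacking a library gave 0 to 18. Over all genes the count, 533, became 1367 with no filter and 965 at an adjusted p under 0.1, with 180 to 1790 in fits lacking a library. The pathway count, 1, became 2 with unscaled totals, 2 in DESeq2, 3 with no filter, 3 at an adjusted p under 0.1, and 1 to 8 in fits lacking a library. Same-numbered libraries deviated together little (correlation 0.0642 over genes), so the numbers were not read as pairs. With the replicate block, 1165 genes (9.39%), 4 interferon-stimulated genes (*Irgm1*, *Irgm2*, *Oas1a* and *Xaf1*, all higher) and 3 pathway genes were called. Why these counts moved was not tested.

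Leaving out a library moved the type I-like median from -0.33 to 0.18 and the GTPase median from -0.0543 to 0.50, the ends set by cKO 2 and cKO 1. Across the fits lacking a library, the sign changed for 33 of the 44 genes, 20 of them outside the genes named by rule, such as *Ifi44* (-0.81 to 1.997), *Rsad2* (-1.36 to 0.62) and *Cmpk2* (-0.45 to 0.64). Of the genes named by rule with a change of sign, log2 fold changes ran -0.77 to 0.18 for *Isg15*, -0.56 to 0.53 for *Ifit1*, -1.04 to 0.0084 for *Ifit3*, -0.35 to 0.18 for *Irf7*, -1.33 to 0.36 for *Mx1*, -0.56 to 0.29 for *Oas2*, -0.31 to 0.39 for *Rtp4*, -0.47 to 0.14 for *Bst2*, -0.49 to 0.26 for *Gbp2*, -0.34 to 0.12 for *Gbp3*, -0.0089 to 0.39 for *Gbp7*, -0.33 to 0.34 for *Igtp*, -0.10 to 1.02 for *Iigp1*, -0.10 to 0.17 for *Ifnar1* and -0.0570 to 0.47 for *Stat2*. *Ifit1*, near 0, also changed sign in limma voom (-0.0349) and with the block (-0.0035). Transcripts near the floor, such as *Ifi44*, *Ifitm3* and *Phf11d*, are limited by depth.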
